A study of Mus musculus with 4 samples.

Results

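The 4 miRNAs described here are mmu-miR-219a-5p, mmu-miR-219a-2-3p, mmu-miR-338-3p and mmu-miR-338-5p (named below without the species prefix), the strands of the oligodendrocyte hairpins miR-219a and miR-338. They were chosen by name: every sequence of the deposited table that the authors had assigned to one of these names was taken, and the sequences of a name were summed. This gave 410 of the 85704 sequences of the table, and 4 of its 1029 named miRNAs. The short RNAs were bound to the RISC (R-sRNAs), the silencing complex built around an Argonaute (Ago) protein. They were pulled down with a GW182 peptide that binds Ago1 to Ago4, from cortex and hippocampus combined of male BL6 mice (C57BL/6J) bought from a commercial breeder, with no transgene, deletion or treatment. The mice were 2 months old in 2 libraries and 18 months old in the other 2 libraries, and the comparison asks what the RISC holds in young and old brain.

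Oligodendrocytes are the glial cells that wrap axons in myelin. miR-219 and miR-338 are known as the miRNAs that accumulate when oligodendrocyte precursors stop dividing and mature, and both repress transcripts such as Sox6 and Hes5 that hold precursors in the immature state. miR-219 also acts on Pdgfra, a growth factor receptor of the precursors, and it has been described in neurons as well, where it lies downstream of the NMDA receptor. Each hairpin yields a duplex, and usually 1 strand, the guide, is kept by Ago while the other, the passenger, is lost.

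The sequences are shown because the results below turn on their ends. In the RefSeq mature sequences, the seed at positions 2 to 8 is in capitals. The 3 seeds differ from each other, and no 2 members share one.
miR-219a-5p: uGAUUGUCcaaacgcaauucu
miR-338-3p: uCCAGCAUcagugauuuuguug
miR-338-5p: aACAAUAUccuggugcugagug

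miR-219a-5p can come from 2 hairpins, and these are on different chromosomes of GRCm38. Mir219a-2 is at chr2:29845631-29845727 on the minus strand, outside annotated host genes and 629 bp from Urm1, and its 5p strand is at chr2:29845689-29845709. Mir219a-1 is at chr17:34024983-34025092 on the minus strand, in an exon of the long noncoding RNA Gm26940, and its 5p strand is at chr17:34025052-34025072. The 2 hairpins share the first 21 bases from the 5p start, so a read of up to 21 nt cannot be assigned to either. The bases that follow are in capitals in these stretches of the RefSeq hairpins.
Mir219a-2: ugauuguccaaacgcaauucuUGUA
Mir219a-1: ugauuguccaaacgcaauucuCGAG
Among reads that ran past these 21 bases from the reference start, the next base was that of Mir219a-2 in 98.9% to 99.7% and that of Mir219a-1 in 0.276% to 0.853% per library. The longer miR-219a-5p reads thus carried the sequence of Mir219a-2 almost throughout.

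Mir338 is at chr11:120014765-120014862 on the minus strand, inside an intron of Aatk and in the same orientation, with the 3p strand at chr11:120014781-120014802 and the 5p strand at chr11:120014816-120014837. In its RefSeq hairpin the 5p strand and then the 3p strand are in capitals.
Mir338: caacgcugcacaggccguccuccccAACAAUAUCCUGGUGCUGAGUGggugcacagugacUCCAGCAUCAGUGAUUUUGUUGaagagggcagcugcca
Other products of these loci were close to absent from the RISC. miR-219a-1-3p, the 3p strand of the second hairpin, was read 11 and 1 times at 2 months and 16 and 10 times at 18 months. miR-219c-5p, from the opposite strand of Mir219a-1, had 1 and 23 reads at 2 months and 2 and 4 at 18 months. miR-3065-5p, from the opposite strand of Mir338, had 2 and 0 reads at 2 months and 6 and 1 at 18 months, where a count of 0 allows up to 3 reads (0.263 CPM). miR-219b-5p, miR-219b-3p, miR-219c-3p and miR-3065-3p were not among the names in the table.

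Depth was similar over the libraries, with 9067007 to 11388999 reads behind the values. All levels are CPM, read counts that the authors scaled to a common library total, and 3 reads were worth 0.263 to 0.331 CPM. miRNAs made up 96.6% to 96.7% of the reads. On log2(CPM + 1) the median change of the 456 tested miRNAs from 2 to 18 months was -0.22, and it was -0.01 after rescaling by the median of ratios, so that a change of about -0.2 on the CPM scale is that of the median miRNA. No source used here states which libraries came from which mouse, so the p-values measure only the spread between these libraries. In bulk tissue, fewer cells of a type and less RNA per cell cannot be told apart.

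With age, none of the 4 miRNAs passed the test for a change in level. This count of 0 of 4 stands beside 16.2% of all tested miRNAs called at an unadjusted p under 0.05 by limma, and 0.219% at an adjusted p under 0.05. By edgeR and DESeq2 0 of the 4 were called as well. The ages overlapped for each of the 4 miRNAs, while they did not overlap for 53.5% of the tested miRNAs. The less abundant strands miR-219a-2-3p and miR-338-5p differed little between any of the libraries, while miR-219a-5p differed most between libraries of the same age.

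miR-219a-5p, the guide strand of miR-219a, reached 1396 and 6423 CPM at 2 months, against 2065 and 3617 CPM at 18 months. Both 18-month libraries lay between the 2-month libraries. The means were 3909 ± 3555 and 2841 ± 1097 CPM (SD, n = 2 each), and miR-219a-5p ranked 56 of the 1029 named miRNAs by mean CPM. The log2 change from 2 to 18 months was -0.13, with a standard error of 0.69 and a 95% interval of -1.80 to 1.54 (limma, adjusted p = 0.929). As a fold of the 2-month level the interval ran from 0.286 to 2.91, so these libraries do not tell apart changes within this range. The value depended on a single library: without replicate 1 of 2 months the log2 change was -1.23, without replicate 2 of 2 months it was 0.97, and both passed the unadjusted threshold in opposite directions.

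miR-219a-2-3p, the other strand of the Mir219a-2 hairpin, reached 886 and 789 CPM at 2 months, against 887 and 822 CPM at 18 months. The highest and the lowest library differed by 1.12-fold. The means were 838 ± 68.0 and 855 ± 45.5 CPM (SD, n = 2 each), and the log2 change was 0.03, with a standard error of 0.20 and a 95% interval of -0.46 to 0.52 (limma, adjusted p = 0.949). It ranked 121 of the named miRNAs.

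miR-338-3p, the guide strand of miR-338, reached 5679 and 4391 CPM at 2 months, against 3232 and 5542 CPM at 18 months. The highest value was at 2 months and the lowest at 18 months, but the second library of each age lay inside this range. The means were 5035 ± 911 and 4387 ± 1634 CPM (SD, n = 2 each), and it was the most abundant of the 4 miRNAs, ranking 51. The log2 change was -0.24, with a standard error of 0.31 and a 95% interval of 0.501 to 1.43 as a fold of the 2-month level (limma, adjusted p = 0.706). The change is close to the -0.22 of the median tested miRNA.

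miR-338-5p, the passenger strand of miR-338, reached 535 and 624 CPM at 2 months, against 631 and 554 CPM at 18 months. The 4 libraries stood within 1.18-fold of each other. The means were 580 ± 63.2 and 593 ± 54.5 CPM (SD, n = 2 each), and the log2 change was 0.03, with a standard error of 0.21 and a 95% interval of -0.48 to 0.55 (limma, adjusted p = 0.946). It ranked 145.

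In order of mean level the 4 miRNAs were miR-338-3p, miR-219a-5p, miR-219a-2-3p and miR-338-5p. miR-338-3p and miR-219a-5p could not be told apart, since miR-219a-5p was above miR-338-3p in replicate 2 of 2 months and below it in the other libraries. miR-219a-2-3p was above miR-338-5p in all 4 libraries. Together the 4 miRNAs held 8495 and 12228 CPM at 2 months, against 6814 and 10535 CPM at 18 months, which is 0.681% to 1.22% of all reads.

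**Figure D1:**
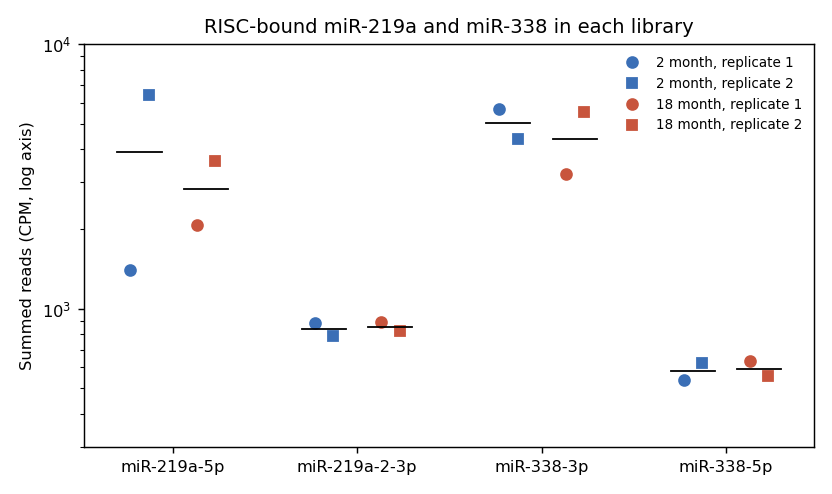
Summed reads of each miRNA in CPM on a log axis, by library, with 2-month libraries in blue, 18-month libraries in red, replicate 1 as circles, replicate 2 as squares and the mean of each age as a line. miR-219a-5p spreads from 1396 to 6423 CPM within the 2-month libraries, while miR-219a-2-3p and miR-338-5p stay within 1.12-fold and 1.18-fold over all 4 libraries.

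The gap between libraries of the same age was large for miR-219a-5p. Its 2-month libraries differed by 4.60-fold, a log2 difference of 2.20, against a median absolute difference of 0.26 over the 456 tested miRNAs. Only 4 tested miRNAs differed more between the 2-month libraries, and none of the other miRNAs among the 109 with a mean of at least 1000 CPM did. The 18-month libraries differed by 1.75-fold (log2 difference 0.81), against a median of 0.27. For miR-338-3p the gaps were 1.29-fold at 2 months and 1.71-fold at 18 months.

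Markers of some other cells also differed between the 2-month libraries. The summed level of the 3 red blood cell miRNAs (miR-144-3p, miR-451a and miR-486a-5p) was 1994 and 3566 CPM in replicates 1 and 2 of 2 months, and that of the 5 epithelial miRNAs of the miR-200 family was 28970 and 49884 CPM. All 5 epithelial miRNAs were higher in replicate 2, whereas of the red blood cell miRNAs miR-144-3p and miR-451a were higher and miR-486a-5p, at 197 and 192 CPM, was not. The summed level of the 6 neuronal miRNAs, among them miR-124-3p, was 194710 and 210894 CPM, but only miR-124-3p and miR-128-3p (37433 and 62462 CPM) were higher in replicate 2, and miR-129-5p, miR-132-3p, miR-137-3p and miR-218-5p (12514 and 6837 CPM) were lower. The endothelial miRNAs summed to 12243 and 11472 CPM in replicates 1 and 2 of 2 months, and those of smooth muscle to 6415 and 6559 CPM. The sums were 3322 and 3790 CPM for the immune list and 2100 and 2623 CPM for choroid plexus. The part of these cells in the gap of miR-219a-5p was not tested.

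The miRNAs whose profile over the 4 libraries was most like that of miR-219a-5p also peaked in replicate 2 of 2 months. Likeness was the Euclidean distance between log2(CPM + 1) profiles, each centred on its own mean, and the nearest was miR-193a-3p at 0.388, with 43.8 and 269 CPM at 2 months, against 88.1 and 119 CPM at 18 months. It was followed by miR-879-5p (0.820) and miR-3106-5p (0.840), against a median distance of 1.75. The nearest to miR-338-3p was miR-674-3p (0.182), that to miR-219a-2-3p was miR-25-3p (0.0798) and that to miR-338-5p was miR-1843a-5p (0.0736). These distances over 4 libraries share the depth and scaling of each library and are given as a description.

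**Figure D2:**
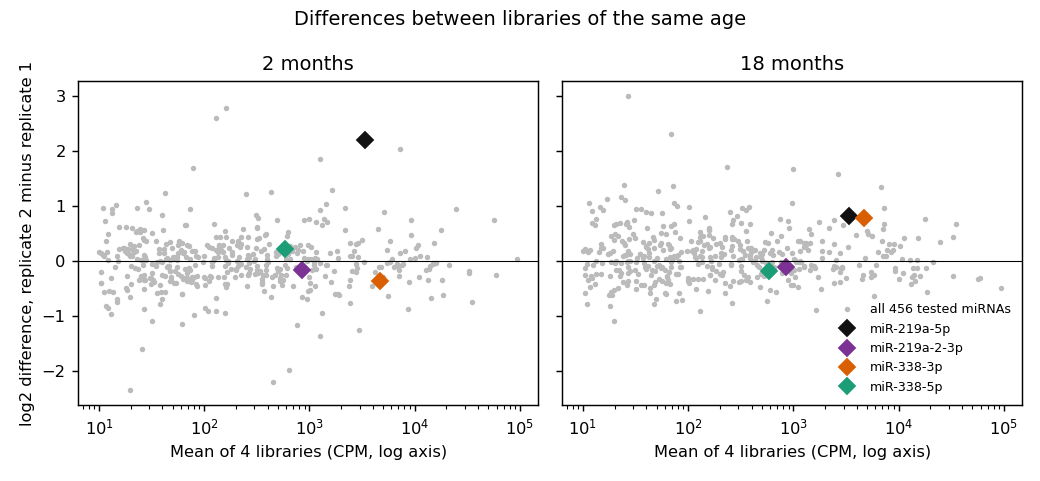
Difference in log2(CPM + 1) between replicate 2 and replicate 1 at each age (vertical axis) against the mean CPM on a log axis, for the 456 tested miRNAs in grey and the 4 miRNAs as diamonds. At 2 months miR-219a-5p sits at 2.20, farther from 0 than every other miRNA with a mean of at least 1000 CPM, while the other 3 miRNAs lie near 0.

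The ratio of the strands followed the guide strands. miR-219a-5p was 1.58-fold and 8.14-fold as abundant as miR-219a-2-3p at 2 months, and 2.33-fold and 4.40-fold at 18 months. The log2 ratio of miR-338-3p to miR-338-5p was 3.41 and 2.81 at 2 months, against 2.36 and 3.32 at 18 months. In each library the guide thus exceeded the other strand, and the ages overlapped for both hairpins. miR-338-3p was 4.07-fold and 0.684-fold as abundant as miR-219a-5p at 2 months, and 1.57-fold and 1.53-fold at 18 months. In exact permutation tests of the log2 ratios between ages (two-sided) p was 1, 0.667 and 1, and 0.333 is the smallest p that 2 libraries per age allow.

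The gap of miR-219a-5p between the 2-month libraries was largest in its commonest isoform. Of its 116 sequences, the 3 most abundant ones started at the reference position and differed at the 3' end only. They are printed as DNA, with bases past the RefSeq mature end in capitals, followed by the most abundant read that started 1 base later, with its shifted seed (positions 2 to 8) in capitals.
miR-219a-5p, 22 nt: tgattgtccaaacgcaattctT
miR-219a-5p, 23 nt: tgattgtccaaacgcaattctTG
miR-219a-5p, 21 nt: tgattgtccaaacgcaattct
miR-219a-5p, start shifted: gATTGTCCaaacgcaattctt
The 22 nt read reached 451 and 4774 CPM at 2 months, against 790 and 1834 CPM at 18 months. This is a 10.6-fold gap between the 2-month libraries (log2 difference 3.40), and of the 778 sequences averaging at least 100 CPM only 1 had a larger gap, against a median of 0.31. The 23 nt read reached 608 and 781 CPM at 2 months, against 500 and 428 CPM at 18 months, a 1.29-fold gap at 2 months. The 21 nt read, which is the RefSeq mature form, reached 157 and 443 CPM at 2 months, against 494 and 974 CPM at 18 months, a 2.81-fold gap at 2 months in the same direction. Without the 22 nt read the rest of miR-219a-5p was 944 and 1649 CPM at 2 months, a 1.75-fold gap.

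The makeup of miR-219a-5p changed accordingly. The 22 nt read made up 32.3% and 74.3% of its reads at 2 months and 38.3% and 50.7% at 18 months. Reads of 23 nt made up 45.2% and 13.4% at 2 months, against 26.5% and 13.7% at 18 months. Templated reads that ended at the RefSeq mature end made up 11.5% and 6.95% at 2 months, against 24.9% and 27.4% at 18 months. How common such a difference in a 3' end share is among the other tested miRNAs was not determined. Reads that differed from the 22 nt read only at the first base, outside the seed, were T1A, T1C and T1G (position 1 is the 5' end), and each had at most 2.96% of its CPM in a library. Without the 22 nt read, the log2 change of miR-219a-5p with age was 0.27 instead of -0.13.

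**Figure D3:**
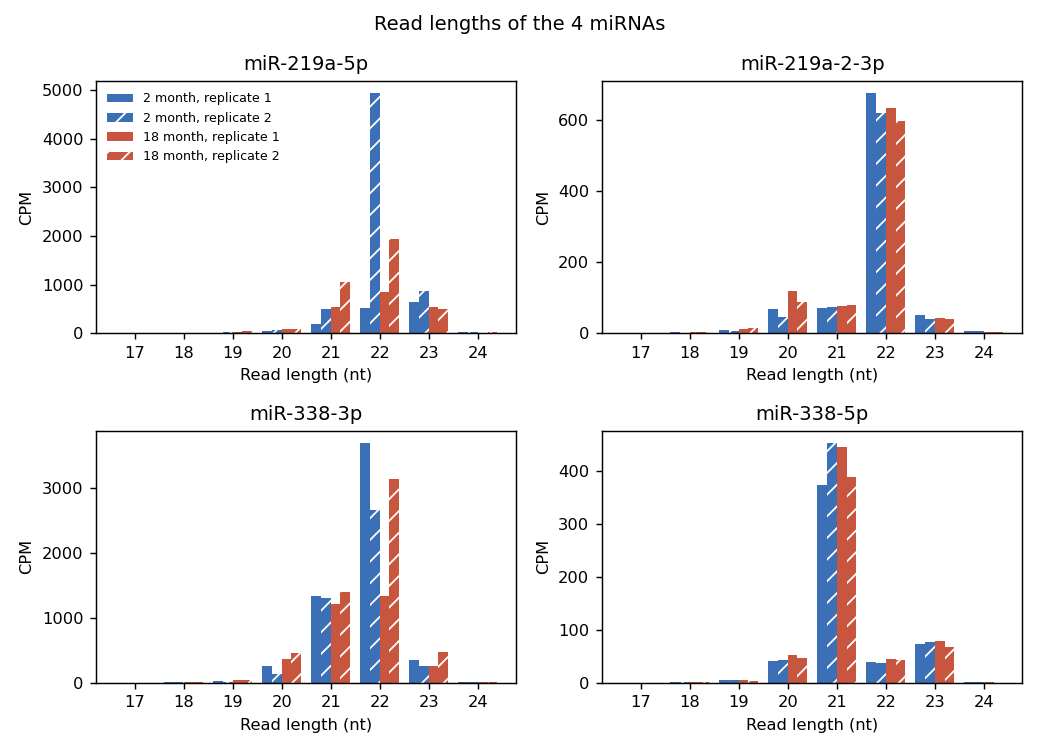
CPM by read length for each miRNA, with 4 bars per length for the libraries (2 months in blue, 18 months in red, replicate 2 hatched). At 22 nt miR-219a-5p reaches 4941 CPM in replicate 2 of 2 months against 507 CPM in replicate 1. At 20 nt miR-338-3p reaches 259 and 132 CPM at 2 months, against 363 and 454 CPM at 18 months. For miR-338-5p these values are 40.6 and 43.3 CPM, against 52.3 and 47.3 CPM. How common such differences are at this length among the tested miRNAs was not determined.

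In the other 3 miRNAs the commonest read differed less between the 2-month libraries than in miR-219a-5p. For miR-219a-2-3p the commonest read, of 22 nt, held 641 and 594 CPM at 2 months, against 599 and 561 CPM at 18 months, which is 67.5% to 75.2% of its reads. For miR-338-5p the commonest read, of 21 nt and thus 1 nt short of the RefSeq mature form, held 324 and 408 CPM at 2 months, against 370 and 338 CPM at 18 months. For miR-338-3p the RefSeq form of 22 nt held 3547 and 2532 CPM at 2 months, against 1191 and 2930 CPM at 18 months. The 21 nt form of miR-338-3p held 1277 and 1248 CPM at 2 months, against 1116 and 1286 CPM at 18 months. The low level of miR-338-3p in replicate 1 of 18 months was thus in its 22 nt form, while its 21 nt form stayed within 1.2-fold of the other libraries.

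Most of the sequences called higher at 18 months lacked templated 3' bases that the commonest read of their miRNA had. Of the 410 sequences of the 4 miRNAs, 118 passed the minimum mean of 1 CPM and were tested in a fit of all 14287 such sequences. At an unadjusted p under 0.05 by limma, 16 of the 118 were called (13.6%), against 10.1% of all tested sequences, and 14 of the 16 were higher at 18 months. Among all tested sequences 5.87% were called higher and 4.23% lower. None of the 16 passed an adjusted p under 0.05 by limma, which 0.042% of all tested sequences did. DESeq2 had 1 of the 118 past it and edgeR 0, and the shares of all tested sequences past it in these fits were not determined. By miRNA, 5 of 40 tested sequences were called for miR-219a-5p, 5 of 15 for miR-219a-2-3p, 6 of 37 for miR-338-3p and 0 of 26 for miR-338-5p. Of the 5 of miR-219a-2-3p, 3 were higher and 2 lower, and the other miRNAs had no sequence called lower.

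Of the 118 tested sequences, 51 had a genome-templated part that ended before that of the commonest read of their miRNA, counting sequences with an untemplated tail of up to 3 bases. This split was not among the planned comparisons. The commonest read of miR-219a-5p runs 1 base past the RefSeq mature end, so reads that stop at the RefSeq end are among the 51. Of these 51, 13 were called higher and 0 lower, and 40 had a positive log2 change, with a median of 0.38. Of the other 67, 1 was called higher and 2 lower, and 31 had a positive log2 change, with a median of -0.03. Over all tested sequences of the table the median was -0.01, and 49.1% were positive. Among the 14 sequences called higher, 7 matched the hairpin throughout, 6 ended in added A bases and 1 carried a mismatch at its 5' end. As a narrower count that can be made for every miRNA, added after these values were seen, 13 tested sequences of the 4 miRNAs were the commonest read with only 3' bases missing. Of these 13, 5 were called higher and 0 lower, 11 had a positive log2 change and the median was 0.70. The other tested miRNAs had 1065 such sequences, of which 7.51% were called higher and 6.01% lower, 48.0% had a positive change and the median was -0.02. The difference between these groups of sequences was not tested.

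These called sequences of miR-219a-5p and miR-338-3p, which were named after their values were seen, are shown with added A bases, or a shifted seed, in capitals.
miR-219a-5p, 20 nt, start shifted: gATTGTCCaaacgcaattct
miR-219a-5p, 21 nt, 1 added A: tgattgtccaaacgcaattcA
miR-338-3p, 20 nt: tccagcatcagtgattttgt
miR-338-3p, 19 nt: tccagcatcagtgattttg
miR-338-3p, 18 nt: tccagcatcagtgatttt
miR-338-3p, 21 nt, 1 added A: tccagcatcagtgattttgtA
The shifted 20 nt read of miR-219a-5p held 2.67 and 2.37 CPM at 2 months, against 19.0 and 14.0 CPM at 18 months. Its log2 change of 2.30, with a standard error of 0.33, had the lowest p of the 118 sequences (limma, adjusted p = 0.0887). The 21 nt RefSeq form of miR-219a-5p, given above, had a log2 change of 1.39 with a standard error of 0.49 (limma, adjusted p = 0.403). Its call was lost without replicate 1 of 2 months (log2 change 0.65) and without replicate 2 of 18 months (0.90), and without replicate 2 of 2 months the change was 2.13. The form with 1 added A rose from 1.05 and 1.05 to 4.26 and 5.07 CPM.

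For miR-338-3p the forms shorter by 2, 3 and 4 bases were each called higher at the unadjusted threshold. The 20 nt read held 236 and 111 CPM at 2 months, against 332 and 423 CPM at 18 months, a log2 change of 1.21 with a standard error of 0.38 (limma, adjusted p = 0.364). Its call was lost without replicate 2 of 2 months (log2 change 0.67) and without replicate 2 of 18 months (1.04). The 19 nt read held 20.5 and 12.7 CPM at 2 months, against 40.9 and 39.6 CPM at 18 months, a log2 change of 1.26 with a standard error of 0.34 (limma, adjusted p = 0.301). The 18 nt read held 9.25 and 4.22 CPM at 2 months, against 16.0 and 17.6 CPM at 18 months, a log2 change of 1.28, and lost its call without replicate 2 of 2 months (0.80). All 3 were higher in each 18-month library than in either 2-month library. Since they were named for being called higher, this order follows largely from that choice. Without such a choice 20.5% of all tested sequences showed it. The 22 nt form was not called (log2 change -0.68), but this value ran from -1.33 without replicate 2 of 18 months, where it was called, to -0.03 without replicate 1 of 18 months, and it was also called when no minimum level was set.

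For miR-219a-2-3p the read 2 bases shorter than the commonest one held 64.4 and 42.2 CPM at 2 months, against 112 and 83.7 CPM at 18 months, a log2 change of 0.88 with a standard error of 0.33 (limma, adjusted p = 0.436). Its call was lost without replicate 2 of 2 months (0.58) and without replicate 1 of 18 months (0.67). Templated reads that ended there made up 8.32% and 5.65% of miR-219a-2-3p at 2 months and 14.5% and 11.8% at 18 months. For miR-338-3p the reads that ended 2 bases short made up 4.21% and 2.58% at 2 months, against 10.4% and 7.74% at 18 months. For miR-338-5p none of the shortened forms was called, and the largest of its shares, of reads that ended 1 base short of the RefSeq mature end, overlapped between the ages at 66.5% and 71.3% against 64.5% and 68.3%.

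**Figure D4:**
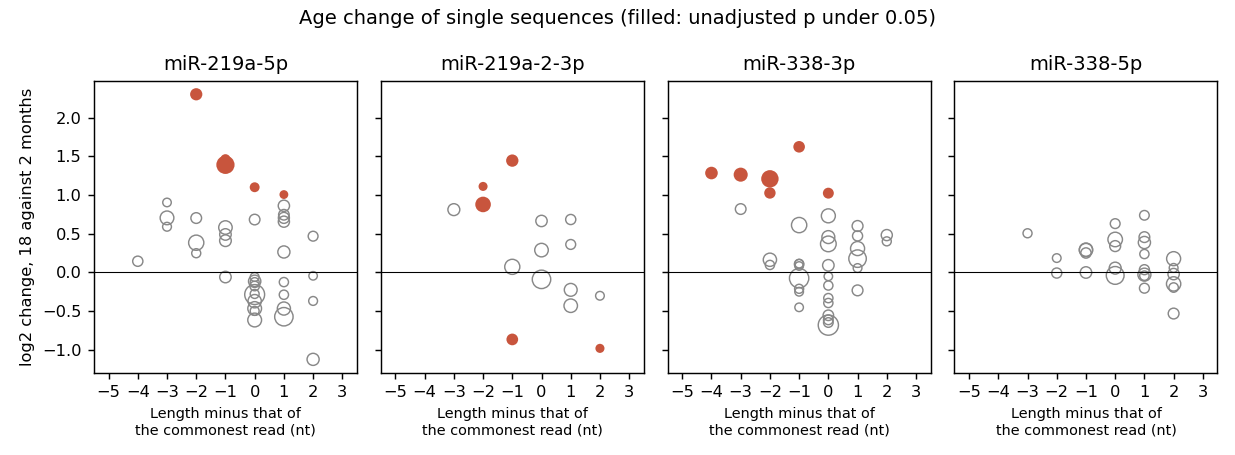
Log2 change from 2 to 18 months of each of the 118 tested sequences, against its length minus the length of the commonest read of its miRNA in nt, with larger circles for higher mean CPM and filled circles for an unadjusted p under 0.05 (limma). Of the 14 filled circles above 0, 11 are shorter than the commonest read.

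The mean read length, added as a measure after the sequences had been examined, was lower at 18 months for each of the 4 miRNAs. For miR-219a-5p it was 22.25 and 22.02 nt at 2 months, against 21.88 and 21.77 nt at 18 months, a change of -0.31 nt with a standard error of 0.10 (limma, adjusted p = 0.488). For miR-219a-2-3p it was 21.80 and 21.84 nt at 2 months, against 21.66 and 21.69 nt at 18 months, a change of -0.15 nt with a standard error of 0.04 (limma, adjusted p = 0.488). For miR-338-3p it was 21.72 and 21.69 nt at 2 months, against 21.42 and 21.64 nt at 18 months, a change of -0.17 nt with a standard error of 0.09 (limma, adjusted p = 0.542). For miR-338-5p it was 21.26 and 21.23 nt at 2 months, against 21.22 and 21.22 nt at 18 months, a change of -0.02 nt (limma, adjusted p = 0.873).

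Thus 2 of the 4 were called lower, against 7.46% of the 456 miRNAs, and none of the 456 passed an adjusted p under 0.05, with 43 (9.43%) at an unadjusted p under 0.05 in either direction. All 4 were shorter in each 18-month library than in either 2-month library, as were 34.4% of the 456. The median change over the 456 was -0.03 nt, and the mean length of all miRNA reads was 21.61 and 21.59 nt at 2 months, against 21.55 and 21.61 nt at 18 months. With the replicate number as a block, miR-219a-2-3p lost its call, and leaving out 1 library at a time each of the 2 calls was lost in 3 of 4 fits: that of miR-219a-5p was kept only without replicate 2 of 2 months, and that of miR-219a-2-3p only without replicate 1 of 2 months. Without replicate 2 of 18 months miR-338-3p was called, with a change of -0.283 nt. Whether RNA quality differed between the libraries was not tested.

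The start of a read sets its seed, and thus the transcripts it can pair with. Reads outside the reference 6mer seed (positions 2 to 7) were few for 3 of the miRNAs and common for miR-338-5p. They made up 21.7% and 20.1% of miR-338-5p at 2 months and 25.6% and 23.8% at 18 months. Most of these started 2 bases upstream, as in this read, with its seed at positions 2 to 8 in capitals.
miR-338-5p, start shifted: cCAACAATatcctggtgctga
Reads with the seed CAACAA made up 16.7% and 14.2% of miR-338-5p at 2 months and 20.2% and 18.3% at 18 months. The read shown held 34.4 and 28.4 CPM at 2 months, against 54.0 and 33.1 CPM at 18 months and was not called (log2 change 0.42).

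For miR-338-3p the share outside the reference seed was 2.19% and 2.65% at 2 months, against 4.39% and 3.64% at 18 months. Most of it started 1 base downstream, as in this read.
miR-338-3p, start shifted: cCAGCATCagtgattttgttg
For miR-219a-2-3p the share was 4.53% and 3.71% at 2 months, against 5.08% and 4.79% at 18 months, and for miR-219a-5p it was 2.86% and 1.03% at 2 months, against 3.47% and 2.24% at 18 months. The shares of miR-338-5p, miR-338-3p and miR-219a-2-3p were thus higher in both 18-month libraries, and that of miR-219a-5p overlapped between the ages. The share outside the reference seed was higher in both 18-month libraries for 15.6% of the 456 tested miRNAs (reference seeds from RefSeq for 391 of them, otherwise that of the commonest read). An exact permutation test over libraries (two-sided) gave p = 0.333 for each of the first 3, which is the smallest p it allows, and p = 0.667 for miR-219a-5p.

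**Figure D5:**
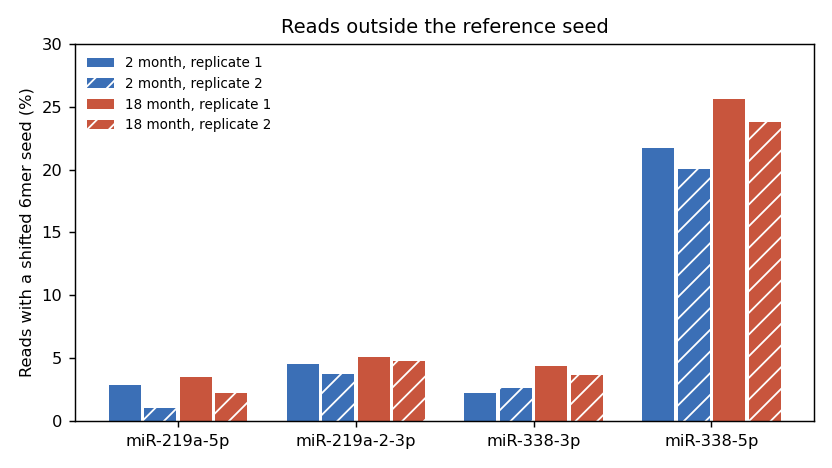
Percent of the reads of each miRNA that do not carry its reference 6mer seed, by library (2 months in blue, 18 months in red, replicate 2 hatched). miR-338-5p stands at 20.1% to 25.6% and the other 3 miRNAs at 1.03% to 5.08%, with both 18-month bars above both 2-month bars except for miR-219a-5p, a pattern that 15.6% of all tested miRNAs had.

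The study scores each 6mer seed by the viability of cells that received a short RNA with that seed, as a mean percent over 3 mouse cell lines, so that a low value marks a toxic seed. The seed of miR-219a-5p had a viability of 88.5%, and 97.5% to 98.4% of all reads had a seed with a lower value. Its seed was thus among the least toxic ones in the RISC. The seed of miR-338-5p had a viability of 78.7%, that of miR-338-3p 71.4% and that of miR-219a-2-3p 65.1%, with 70.5% to 71.4% of all reads below the last of these. The shifted forms differed from the reference ones: the seed AUUGUC of miR-219a-5p had a viability of 58.3%, CAGCAU of miR-338-3p 62.7% and CAACAA of miR-338-5p 75.7%, each below the reference seed, while AGAAUU of miR-219a-2-3p had 81.2%, above its reference seed. Since the shifted reads were few, the mean viability over the reads of miR-219a-5p stayed at 87.6% to 88.3% and that of miR-338-3p at 71.0% to 71.2% over the 4 libraries.

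These seeds belonged to the 4 miRNAs almost alone. Of the reads that carried a reference seed, the named member held 97.6% to 99.1% in each library. No other named miRNA reached a mean of 10 CPM in reads with any of the 4 reference 6mers. Below this level a few reads of other miRNAs carried them, such as miR-103-3p with 1.56 CPM of the seed CCAGCA of miR-338-3p.

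Of the 16 other miRNAs with a described role in the oligodendrocyte lineage, all were tested, 0 were called higher and 2 lower at 18 months (limma, unadjusted p under 0.05), with a median log2 change of -0.28 against -0.22 over all tested miRNAs. Over all tested miRNAs 4.17% were called higher and 12.1% lower. The called ones were miR-7a-5p, with 183 and 192 CPM at 2 months, against 116 and 136 CPM at 18 months (log2 change -0.57, limma, adjusted p = 0.266), and miR-19b-3p of the miR-17 to miR-92a cluster, with 721 and 785 CPM at 2 months, against 471 and 540 CPM at 18 months (log2 change -0.58, limma, adjusted p = 0.266). The most abundant of the list, miR-9-5p, which is also high in neural progenitors and neurons, held 42830 and 25548 CPM at 2 months, against 27655 and 43876 CPM at 18 months. The 16 miRNAs are not specific to oligodendrocytes, and miR-146a-5p is also on the immune list.

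Among the miRNAs of other cell types, 0 of 6 neuronal, 0 of 5 tested immune, 0 of 3 red blood cell, 0 of 2 smooth muscle and 0 of 1 choroid plexus miRNAs were called. Of the 2 endothelial ones 1 was lower, and of the 5 epithelial ones 4 were higher at 18 months, with a summed level of 60617 and 66546 CPM at 18 months. None of these calls passed an adjusted p under 0.05, and the 4 epithelial ones had adjusted p-values of 0.249 to 0.266 by limma. The lists were not tested against each other, and the part of such cells in the length and start of the miR-219a and miR-338 reads was not tested.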

How the data were processed

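R-sRNAs were recovered by the Ago pull-down and size-selected at 19 to 35 nt on a gel before the libraries were made, per the labels. Reads were processed with Trim Galore among other tools (submitters' processing notes; version not given in the sources used here). The authors removed rare reads, matched the rest to mouse small RNA lists and deposited normalized counts (CPM) per sequence and library, plus, for the 6mer seed at positions 2 to 7, a score that the authors computed as the mean viability of 3 cell lines in percent. No per-sample column was left unassigned. The table holds reads of 15 to 33 nt with at least 4 reads over the libraries.

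The members and lists were chosen with earlier results of these data known. Sequences were summed by the authors' miRNA name. The log2(CPM + 1) values of 456 miRNAs averaging at least 10 CPM, and of 14287 sequences averaging at least 1 CPM, were fitted by limma 3.58.1 with its trend option and age as covariate, and p-values were adjusted by Benjamini-Hochberg over all of them. Calls were made below an unadjusted p of 0.05, as in the study. Mean read length was fitted by limma without a trend. A fold change on this scale understates that of low sequences. Ratios and shares were compared by exact permutation tests over libraries. The CPM values were whole multiples of 1 read (100% within 0.0006 CPM), and edgeR 4.0.16 and DESeq2 1.42.0 were run on the recovered reads as alternatives. The main limma, edgeR and DESeq2 fits and the fit of read length were tested on simulated data, and the other settings were not. Named were the 4 members, the 3 most abundant sequences and the most abundant shifted one of each, products of the same loci, the 3 miRNAs nearest in profile and the marker lists. Called sequences outside this rule were named after their values were seen. Mature and hairpin sequences and loci are from RefSeq and GENCODE on GRCm38.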

Additional observations from a re-analysis of the deposited data

Results flagged for a closer look

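Some reads mapped to the hairpins but were given no miRNA name, and they are in none of the sums. They stood above the 3 reads that a count of 0 allows in every library: at least 45 reads for mir-219-1, 390 for mir-219-2 and 562 for mir-338. For mir-219-1 they were 4.29 and 13.3 CPM at 2 months, against 11.8 and 21.7 CPM at 18 months, for mir-219-2 they were 43.7 and 111 CPM at 2 months, against 36.9 and 54.3 CPM at 18 months, and for mir-338 they were 79.8 and 65.4 CPM at 2 months, against 53.2 and 76.0 CPM at 18 months. The ages overlapped at each of the 3 hairpins. In this order of the hairpins, 3 of 32, 18 of 115 and 19 of 161 sequences were exact parts of the hairpin, and how the others differed from it was not examined.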

How the results depend on the processing

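No setting that kept all 4 libraries gave a call for the age change of any of the 4 miRNAs (13 settings each), but small changes turned sign. For miR-219a-5p the log2 change was 0.0799 with the median of ratios, 0.0908 with edgeR and the replicate block and 0.27 without its most abundant sequence. For miR-338-3p it was 0.0205 with edgeR, 0.00918 with DESeq2 and 0.21 without its most abundant sequence, and for miR-338-5p it was -0.0379 with reads of the reference seed only. Leaving out 1 library at a time gave -1.23 to 0.97 for miR-219a-5p, -0.0526 to 0.113 for miR-219a-2-3p, -0.63 to 0.15 for miR-338-3p and -0.0783 to 0.144 for miR-338-5p. In these fits the lone library of an age is assumed to vary like the others.

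The count of called miRNAs was 125 with no filter, 43 with a minimum of 100 CPM, 1 at an adjusted p under 0.05 (19 by DESeq2) and 55 to 74 leaving out a library. Rescaling changed its split from 19 higher and 55 lower to 39 higher and 25 lower with the median of ratios. The count of called member sequences was 28 with no filter, 6 with a minimum of 10 CPM, 0 at an adjusted p under 0.05 and 13 to 22 leaving out a library. Fewer or more sequences were tested under the 2 filters, and the cause of the other shifts was not tested. Of the 16 called sequences, 144 of 150 fits that kept all libraries and 39 of 64 that left 1 out kept the call, with 0 reversed, and 4 kept it in every fit that left out a library: the shifted 20 nt and the A-tailed 21 nt read of miR-219a-5p, and the 19 nt and the A-tailed 21 nt read of miR-338-3p.

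Mean read length changed by -0.43 to -0.20 nt for miR-219a-5p, -0.17 to -0.12 nt for miR-219a-2-3p, -0.283 to -0.0663 nt for miR-338-3p and -0.0361 to -0.00601 nt for miR-338-5p leaving out a library. With the median of ratios the commonest reads turned to 0.12 for miR-219a-2-3p and 0.17 for miR-338-5p, the 21 nt read of miR-338-3p to 0.14 and the 23 nt read of miR-338-5p to 0.0567. Leaving out a library gave -1.99 to 1.41 for the 22 nt read of miR-219a-5p, -0.0423 to 0.185 for the 21 nt read of miR-219a-2-3p, -0.178 to 0.0268 and -0.25 to 0.61 for the 21 and 23 nt reads of miR-338-3p, and -0.21 to 0.13 and -0.392 to 0.0942 for the 21 and 23 nt reads of miR-338-5p. Without its most abundant sequence, the age difference in the share of miR-219a-2-3p outside the reference seed was -0.363 instead of 0.808 percentage points.

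The replicate numbers are shared by the ages but name different libraries, and the deviations of same-numbered libraries correlated at 0.180 across miRNAs, so they were not taken as pairs. With the replicate block, 79 miRNAs and 18 member sequences were called, and miR-219a-2-3p lost its call for read length (-0.15 nt). The block changed no call in the levels of the 4 miRNAs.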
